A study of Mus musculus with 44 samples.

Results

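Neuronal basic helix-loop-helix (bHLH) transcription factors were represented by 7 genes: Neurod1, Neurod2, Neurod6, Bhlhe22, Bhlhe40, Bhlhe41 and Tcf4. They were picked by symbol, and all 7 were found among the 27179 genes counted in each library and passed the filter on low counts in every comparison. Their Entrez identifiers in the files are 18012, 18013, 11922, 59058, 20893, 79362 and 21413 in that order. The libraries hold RNA from the dorsal hippocampus of adult mice on a mixed C57BL/6J and 129S2/Sv F2 background, 1 mouse each. WT mice were compared with mice homozygous for the Kdm5bDARID allele (Kdm5bDARID/DARID, called mutants). In every cell it lacks the ARID domain and part of the JmjN domain of the histone demethylase KDM5B, and leaves the protein without demethylase activity. The paper also reports an apparent drop in total KDM5B protein, which it names as a limit on tying effects to the lost activity. Mice of each genotype were naive and taken from the home cage (0 h), or were taken 1 h or 3 h after a single contextual fear conditioning session with foot shocks, with 6 mice in each of the 6 groups, 3 labelled male and 3 labelled female. The comparisons ask whether these factors differ between genotypes and whether they respond to training. The naive mice saw neither the chamber nor the shock. Against 0 h, therefore, time after training, exposure to the chamber, the shock and time of day cannot be told apart. Between 1 h and 3 h, time after training and time of day cannot be told apart.

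bHLH factors bind DNA as dimers, with a basic region that contacts the hexamer CANNTG, called the E-box, and a helix-loop-helix that joins the partners. Class II factors such as the NeuroD proteins pair with ubiquitous class I partners, the E proteins, of which Tcf4 encodes one, and Id proteins, which lack the basic region, take up E proteins and keep them from DNA. NeuroD1 drives the differentiation and survival of dentate granule cells, and NeuroD2 and NeuroD6 mark mature pyramidal and granule neurons of the forebrain. Bhlhe22 (also called BHLHB5) is a repressor of the Olig-related family that works with the zinc finger protein PRDM8 in projection neurons. Bhlhe40 and Bhlhe41 (DEC1 and DEC2) are repressors that bind the E-boxes of circadian clock genes and oppose CLOCK and BMAL1.

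Positions are given on the mouse genome GRCm38, the build behind the deposited counts, with the gene limits of RefSeq. Strands and overlapping genes are those of the GENCODE annotation, whose gene limits can differ. Neurod1 lies on the minus strand at chr2:79452637-79456636, Neurod2 on the minus strand at chr11:98325415-98329645, and Bhlhe22 on the plus strand at chr3:18054325-18057514. Neurod6 (minus strand, chr6:55677818-55681263), Bhlhe40 (plus strand, chr6:108660629-108666925) and Bhlhe41 (minus strand, chr6:145858243-145865420) share a chromosome. Neurod2, Neurod6 and Bhlhe22 overlap no other annotated gene. Neurod1 overlaps Cerkl on its own strand and Gm26755 on the other, Bhlhe40 an antisense gene, 0610040F04Rik, Bhlhe41 the opposite-strand gene Gm43909, and Tcf4 an rRNA gene on its own strand, Gm24845. The strand setting of the counting is not given in the sources used here, so reads in these overlaps cannot be assigned with certainty.

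The proteins of this family read the E-box, and promoter windows show where that hexamer stands in their own genes. Promoters of 4 of the 7 members are shown. Those of Bhlhe22 and Bhlhe40 were missing from the reference used and that of Tcf4 is not shown, so nothing is said of these members. The sequences are the 250 bases before the RefSeq start of each gene (GRCm38.p6), read 5′ to 3′ on the gene's strand, with every match to the E-box CANNTG in capitals. The motif is its own reverse complement, so a match counts for both strands. They stand at chr2:79456637-79456886 for Neurod1, chr11:98329646-98329895 for Neurod2, chr6:55681264-55681513 for Neurod6 and chr6:145865421-145865670 for Bhlhe41, all on the minus strand.
Neurod1: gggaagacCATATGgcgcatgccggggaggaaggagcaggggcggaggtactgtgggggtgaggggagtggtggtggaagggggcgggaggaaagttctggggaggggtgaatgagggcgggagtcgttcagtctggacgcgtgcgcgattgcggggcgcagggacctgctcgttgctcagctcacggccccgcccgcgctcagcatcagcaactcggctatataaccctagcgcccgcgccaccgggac
Neurod2: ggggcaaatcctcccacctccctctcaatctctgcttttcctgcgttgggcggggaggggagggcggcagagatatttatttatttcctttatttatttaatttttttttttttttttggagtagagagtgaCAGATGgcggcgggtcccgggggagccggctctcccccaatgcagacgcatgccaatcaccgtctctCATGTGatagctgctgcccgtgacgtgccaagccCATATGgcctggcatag
Neurod6: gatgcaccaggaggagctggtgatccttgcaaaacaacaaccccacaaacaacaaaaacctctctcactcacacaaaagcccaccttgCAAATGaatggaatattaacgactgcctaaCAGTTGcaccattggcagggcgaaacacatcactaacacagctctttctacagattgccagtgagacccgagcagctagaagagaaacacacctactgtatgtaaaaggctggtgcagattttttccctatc
Bhlhe41: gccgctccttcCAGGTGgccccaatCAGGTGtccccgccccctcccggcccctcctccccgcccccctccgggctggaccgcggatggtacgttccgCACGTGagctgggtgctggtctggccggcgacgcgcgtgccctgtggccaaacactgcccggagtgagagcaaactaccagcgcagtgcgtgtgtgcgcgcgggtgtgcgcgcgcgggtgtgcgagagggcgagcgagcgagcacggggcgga
Neurod2 and Bhlhe41 each held 3 matches, a number that 12.2% of the 32851 RefSeq promoters of this length reached or passed. Neurod6 held 2 (reached by 31.8%) and Neurod1 held 1 (66.2%). In Bhlhe41 the match nearest the start, 153 bases before it, is CACGTG, the palindromic form that CLOCK and BMAL1 and the DEC repressors bind, and 6.02% of promoters held this hexamer. The cAMP response element TGACGTCA, also a palindrome and present in 1.55% of promoters, was found in none of the 4 windows.

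Library totals ran from 40274435 to 107000233 counts, and no library repeated another. At 3 h the totals of the genotypes did not overlap, with 70992683 to 107000233 in WT and 56774704 to 69167677 in mutants. The part of depth in the comparisons that use the 3 h libraries was not tested. Counts for a single member ranged from 1237 (Neurod1) to 59151 (Tcf4) in a library. Kdm5b itself was counted over the whole gene, which includes exons outside the deletion, and so checks the genotype labels only weakly. Its level spanned 79.4 to 97.0 CPM (counts scaled to a common library total) among the 18 WT libraries, and 75.8 to 93.8 CPM among the 18 mutants. Sex-linked transcripts went against the label in the libraries labelled WT 1 h male 1 and mutant 3 h female 2. These stayed under their labels, and the fits that hold them were also run without them. All listed markers of dentate granule cells, CA1 and CA3 were detected in every group, so the labelled tissue was not contradicted.

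Levels between genes were compared in CPM (scaled by TMM factors) per kilobase of annotated exon, over all 36 libraries. Neurod6 had the highest level (96.2 ± 13.1 CPM per kilobase, mean ± SD) and Neurod2 the next (78.5 ± 7.36), followed by Bhlhe22 (47.6 ± 6.65), Bhlhe40 (26.1 ± 3.29), Tcf4 (21.5 ± 1.34), Neurod1 (11.8 ± 1.72) and Bhlhe41 (4.18 ± 0.575). The ranges of Neurod6 and Neurod2 overlapped, although Neurod6 was the higher of the pair in 34 of 36 libraries. The ranges of Bhlhe40 and Tcf4 overlapped too, with Bhlhe40 higher in 35 of 36. Every other neighbouring pair was fully separated. The level of Tcf4 is understated on this scale, since its 27382 annotated exon bases sum over many alternative starts that a single transcript does not hold. Reads of 150 bases can tell the NeuroD paralogs apart. The longest stretch that the Neurod1 and Neurod2 transcripts share exactly is 25 coding bases in the helix-loop-helix, tggccaagaactacatctgggctct, and that of Neurod1 and Neurod6 is 17 bases.

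**Figure D1:**
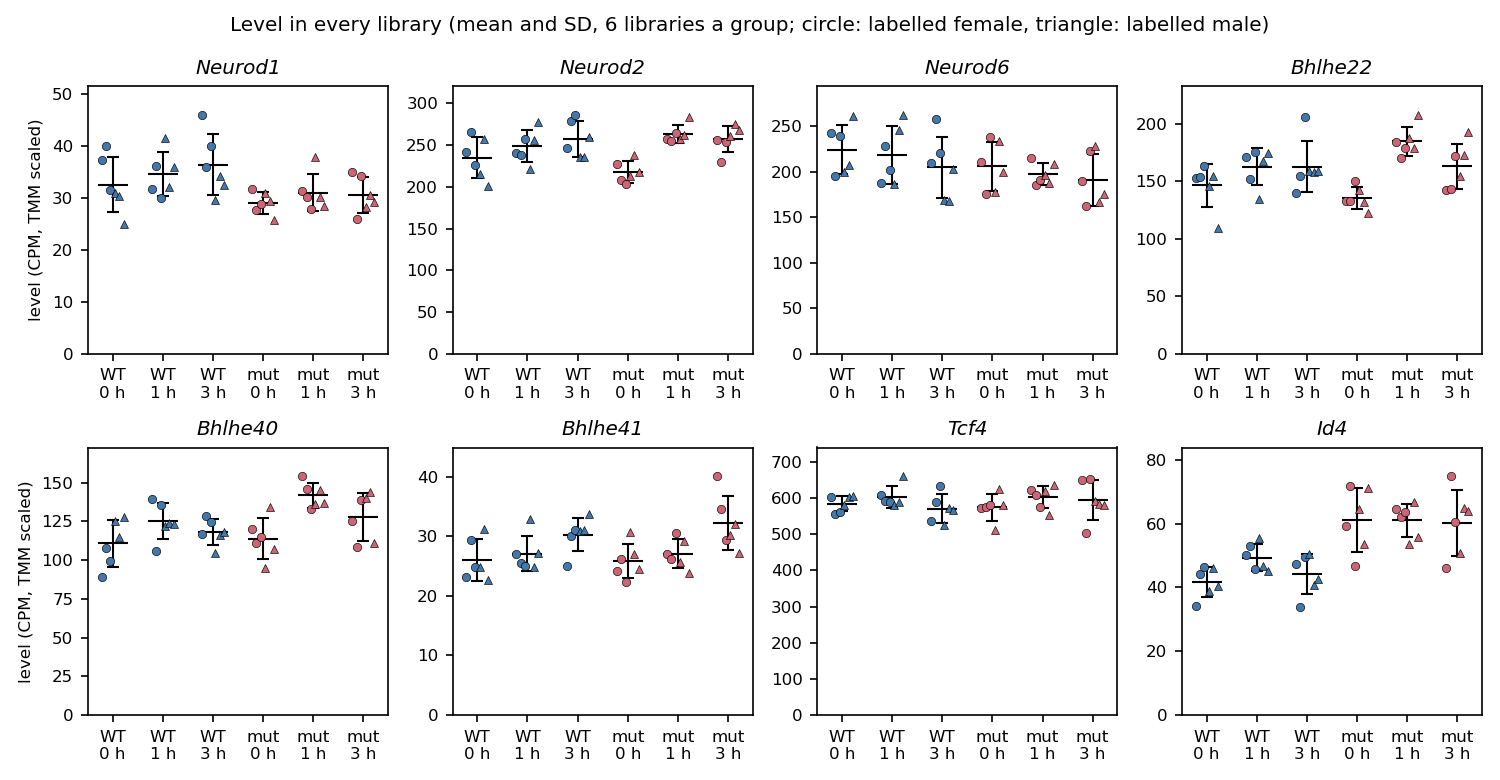
Level of each member and of Id4, the inhibitor that differed most between genotypes, in every library, in TMM-scaled CPM on axes that start at 0, with 6 libraries per group. Bars give the mean and SD, circles are mice labelled female and triangles mice labelled male. Bhlhe22 and Neurod2 in mutants at 1 h sit above all mutant libraries at 0 h, and most other groups overlap. The share of all genes that separate in this way was not counted, and nothing is read from this separation.

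Neurod2 encodes a factor of mature excitatory neurons that supports synapse formation. In WT the lowest, median and highest library held 201, 234 and 265 CPM at 0 h, 221, 249 and 278 CPM at 1 h, and 236, 253 and 287 CPM at 3 h. In mutants the same values were 203, 216 and 238 CPM at 0 h, 255, 259.5 and 284 CPM at 1 h, and 230, 258 and 275 CPM at 3 h. All 6 mutant libraries at 1 h, and 5 of 6 at 3 h, stood above every mutant library at 0 h, whereas the WT groups overlapped widely. Here and for the members below such counts are a record, since the share of all genes that separate in this way was not counted.

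Bhlhe22, the PRDM8 partner, had the largest difference from 0 h of the members, in mutants at 1 h. WT libraries held 109.6, 153 and 163 CPM at 0 h (lowest, median, highest), 135, 169 and 175 CPM at 1 h, and 140.1, 158 and 206 CPM at 3 h. Mutant libraries held 122, 133 and 149.9 CPM at 0 h, 170.2, 182 and 208 CPM at 1 h, and 143, 163 and 193 CPM at 3 h. The 6 mutant libraries at 1 h lay above all mutant libraries at 0 h, and 5 of them above all WT libraries at 1 h.

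Bhlhe40 encodes the DEC1 repressor, which is induced by many stimuli. Its WT libraries held 89.0, 111 and 128 CPM at 0 h, 106, 124 and 139 CPM at 1 h, and 105, 117 and 129 CPM at 3 h. Its mutant libraries held 94.96, 113 and 134 CPM at 0 h, 133, 141 and 154 CPM at 1 h, and 108, 132 and 144 CPM at 3 h. The 1 h libraries that exceeded every 0 h library of their genotype numbered 5 of 6 for mutants and 2 of 6 for WT.

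Bhlhe41, the DEC2 repressor, had its highest levels at 3 h in both genotypes. In WT it held 22.7, 24.9 and 31.2 CPM at 0 h, 24.9, 26.3 and 32.9 CPM at 1 h, and 25.1, 30.9 and 33.7 CPM at 3 h. In mutants it held 22.4, 25.3 and 30.7 CPM at 0 h, 23.8, 26.6 and 30.5 CPM at 1 h, and 27.2, 31.1 and 40.1 CPM at 3 h. The time groups overlapped in both genotypes, with 3 of 6 mutant libraries at 3 h, and 1 of 6 in WT, above all at 0 h.

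Neurod1 is the factor of young granule neurons that remains on in the adult dentate gyrus. It held 24.9, 31.2 and 39.9 CPM in WT at 0 h, 29.9, 34.0 and 41.4 CPM at 1 h, and 29.5, 35.0 and 46.0 CPM at 3 h. In mutants it held 25.8, 29.1 and 31.7 CPM at 0 h, 27.9, 30.1 and 37.9 CPM at 1 h, and 25.8, 29.8 and 34.9 CPM at 3 h. The mutant median was the lower at each time, and the ranges of the genotypes overlapped at each time.

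Neurod6, the pyramidal neuron factor also known as NEX, varied mostly within groups. WT libraries held 195, 223 and 261 CPM at 0 h, 186, 215 and 262.5 CPM at 1 h, and 168, 206 and 258 CPM at 3 h. Mutant libraries held 175, 205 and 238 CPM at 0 h, 185, 194 and 215 CPM at 1 h, and 162.5, 183 and 228 CPM at 3 h. All of these ranges overlapped.

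Tcf4, the E protein gene (plus strand, chr18:69343429-69687967), was the steadiest member, with a coefficient of variation of 6.21% over the 36 libraries against 9.38% for Neurod2 and 12.6% to 14.6% for the other members. It held 557, 591.3 and 606 CPM in WT at 0 h, 579.9, 591 and 661 CPM at 1 h, and 525, 570.1 and 635 CPM at 3 h. In mutants it held 512, 578 and 625 CPM at 0 h, 555, 614 and 637 CPM at 1 h, and 504.1, 588 and 654 CPM at 3 h, with every group overlapping every other.

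The response to training in WT mice was tested first, with edgeR's quasi-likelihood F-test on the 12 libraries of each comparison, sex as a covariate and Benjamini-Hochberg adjustment over all genes. A positive log2 fold change means a higher level in the later group, and the value in brackets is its standard error. At 1 h no member passed an adjusted p of 0.05, as no gene of the 17319 tested did (0%, with 928 genes, 5.36%, at an unadjusted p under 0.05, and 5 to 9 called by DESeq2, none a member). Bhlhe40 had the smallest p of the members (log2 fold change 0.18, SE 0.08, 95% interval -0.00089 to 0.36, adjusted p = 0.924). Bhlhe22 stood at 0.15 (SE 0.09, adjusted p = 0.926) with 4 of 6 libraries above all 0 h libraries, and Neurod2 at 0.08 (SE 0.07, adjusted p = 0.944, edgeR). Tcf4, Neurod1, Bhlhe41 and Neurod6 were between -0.04 and 0.09. Without the library labelled WT 1 h male 1, Bhlhe22 stood at 0.19 (SE 0.08, adjusted p = 0.73) and Bhlhe40 at 0.21 (SE 0.09, adjusted p = 0.724), Neurod2 stood at 0.11, Neurod1 went from 0.09 to 0.02, Bhlhe41 from 0.05 to -0.0032, Neurod6 from -0.04 to 0.01 and Tcf4 from 0.04 to 0.06. Without WT 0 h male 3, its lowest library at 0 h, Bhlhe22 stood at 0.08, and Neurod2 stood at 0.04 without that library or WT 1 h male 3.

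At 3 h in WT again 0 members and 0 of 17438 genes passed (0%, with 1436 genes, 8.23%, at an unadjusted p under 0.05, and 49 to 75 called by DESeq2, none a member). Bhlhe41 was the only member with an unadjusted p under 0.05 (log2 fold change 0.22, SE 0.09, adjusted p = 0.555, edgeR). Neurod1 (0.16, SE 0.08), Bhlhe22 (0.15, SE 0.10) and Neurod2 (0.13, SE 0.06) had intervals that reached 0, and Bhlhe22 stood at 0.08 without WT 3 h female 3, its highest library, and at 0.09 without WT 0 h male 3. Neurod6 lay on the other side of 0 (-0.14, SE 0.10), at -0.07 without WT 0 h male 3, while Bhlhe40 (0.10, SE 0.08) and Tcf4 (-0.04, SE 0.05) also had intervals that held 0. Leaving out 1 library at a time took Bhlhe40 from 0.04 to 0.15. Between 1 h and 3 h in WT, where edgeR called 0 of 17388 genes (0%, against 7.41% at an unadjusted p under 0.05, and 49 to 62 genes by DESeq2), Bhlhe41 stood higher at 3 h by 0.16 (SE 0.07, adjusted p = 0.661, unadjusted p also under 0.05). The other members ranged from -0.10 (Neurod6) to 0.06 (Neurod1) there, and leaving out 1 library at a time took Neurod6 from -0.17 to -0.03. Without WT 1 h male 1 the Bhlhe41 value was 0.21 (adjusted p = 0.33), Neurod1 stood at 0.14 and Bhlhe22 at -0.04 in place of 0.0013.

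In mutants the time comparisons are given as values without p for the members, because the 7 genes were listed with the results of these data known and the contrast behind the list is not stated. Calls in them are printed beside the share over all genes as a record, and nothing is read from the pair. At 1 h against 0 h the log2 fold change was 0.45 (SE 0.06) for Bhlhe22, 0.32 (SE 0.07) for Bhlhe40 and 0.27 (SE 0.04) for Neurod2. Of the members 2 of 7, Bhlhe22 and Neurod2, were among the genes called, and over all genes the share was 0.312% (54 of 17282), or 0.301% for those called higher at 1 h (52). Neurod1 (0.09), Tcf4 (0.07), Bhlhe41 (0.07) and Neurod6 (-0.06) all had intervals that held 0. Leaving out the library mutant 0 h male 2 added Bhlhe40 to the calls (0.38, SE 0.05), as did the replicate block and DESeq2, and DESeq2 called 363 to 402 genes. Over all libraries left out in turn, edgeR called 26 to 86 genes.

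At 3 h against 0 h in mutants no member was called, and no gene of 17285 (0%, with 1481 genes, 8.57%, at an unadjusted p under 0.05). DESeq2, which called 124 to 135 genes, called Neurod2 alone of the members. The log2 fold changes were 0.32 (SE 0.10) for Bhlhe41, 0.26 (SE 0.08) for Bhlhe22 and 0.24 (SE 0.05) for Neurod2. Bhlhe40 stood at 0.17 (SE 0.09), and the other members lay between -0.11 (Neurod6) and 0.07 (Neurod1). Without mutant 3 h female 2, the library that went against its sex label, these values were 0.30 for Bhlhe41, 0.30 for Bhlhe22, 0.26 for Neurod2 and 0.21 for Bhlhe40, with Neurod1 at 0.12, Tcf4 at 0.10 in place of 0.05 and Neurod6 at -0.06.

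Between 1 h and 3 h in mutants, a comparison in which edgeR called no gene of 17247 (0%, against 8.04% at an unadjusted p under 0.05, and 70 to 81 genes by DESeq2), members went in both directions. Bhlhe22 was lower at 3 h (-0.18, SE 0.06) and Bhlhe40 likewise (-0.15, SE 0.07), whereas Bhlhe41 was higher (0.25, SE 0.08). Neurod2 differed by -0.03 (SE 0.04), with an interval of -0.12 to 0.05. Neurod6 (-0.04), Neurod1 (-0.02) and Tcf4 (-0.02) were close to 0. Without mutant 3 h female 2 Bhlhe22 stood at -0.16, Bhlhe40 at -0.10, Bhlhe41 at 0.25 and Neurod2 at -0.0078, and the other members lay between 0.0020 (Neurod6) and 0.03 (Tcf4).

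**Figure D2:**
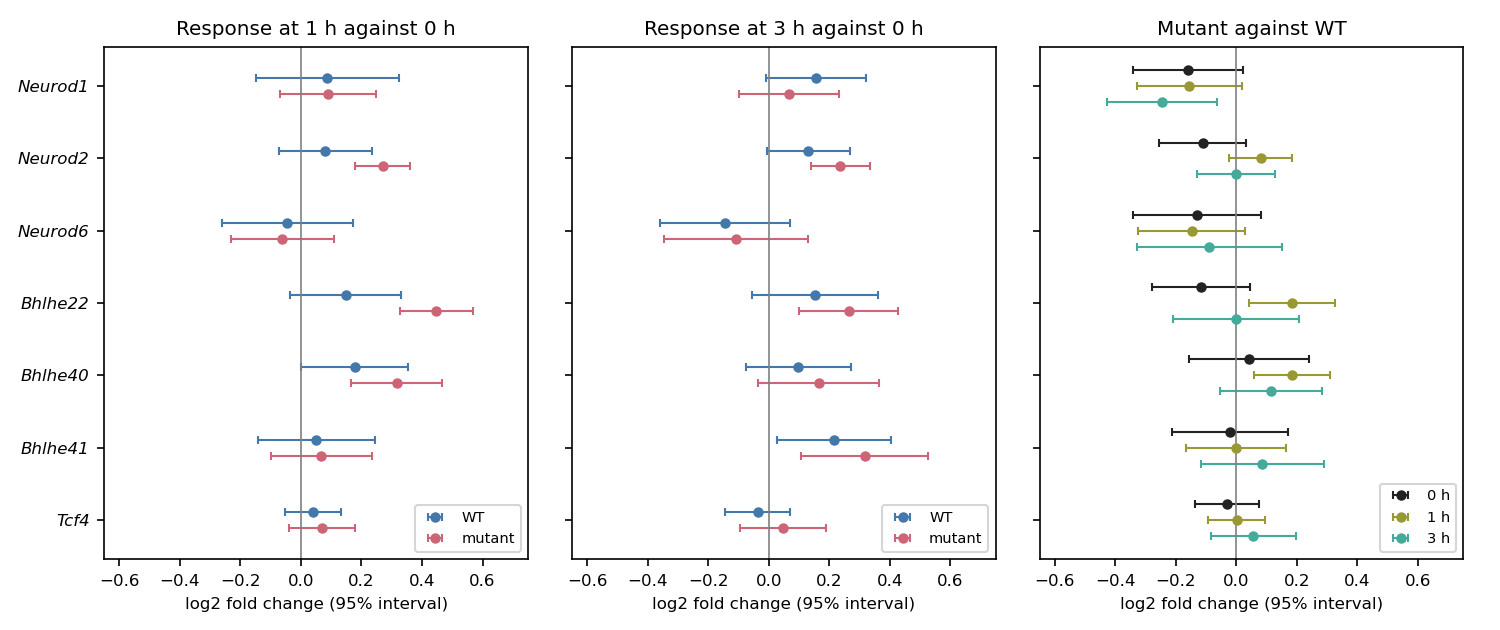
Log2 fold change of each member with its 95% interval, from edgeR fits of 6 against 6 libraries, for the response at 1 h and at 3 h in each genotype and for mutant against WT at each time. Mutant values for Bhlhe22, Neurod2 and Bhlhe40 at 1 h lie above 0 and to the right of the WT values, and the Bhlhe41 intervals at 3 h lie above 0 in both genotypes.

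Averaged over the genotypes, in a fit of all 36 libraries that contains the mutant contrasts above, 3 of 7 members were called at 1 h and 1.28% of all genes (232 of 18186). Because of the shared contrasts these calls too are a record and no test of the members. They were Bhlhe22 (0.30, SE 0.07), Bhlhe40 (0.25, SE 0.06) and Neurod2 (0.18, SE 0.04). At 3 h, 2 of 7 members and 2.6% of all genes were called, the members being Bhlhe41 (0.27, SE 0.06) and Neurod2 (0.18, SE 0.04). Bhlhe22 stood at 0.21 (SE 0.07) and was called without the libraries of discordant sex (0.22, SE 0.06) and by DESeq2. Neurod6 had values below 0 at both times (-0.05, SE 0.07, and -0.12, SE 0.07), and those of Tcf4 were 0.06 (SE 0.04) and 0.0055 (SE 0.04). Neurod1 stood at 0.09 and 0.11 at the 2 times, Bhlhe41 at 0.06 at 1 h and Bhlhe40 at 0.13 at 3 h, none of them called.

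Whether the genotypes responded differently was fitted as an interaction over the 24 libraries of both genotypes at both times. At 1 h no member and no gene of 17907 passed in edgeR (0%, with 677 genes, 3.78%, at an unadjusted p under 0.05, and 1 to 2 genes by DESeq2, none a member). The difference contains the mutant 1 h contrast and is given for the members as a value with its 95% interval. These intervals are a record and no independent test of the members, whether or not they hold 0. The value, mutant response less WT response, was 0.30 for Bhlhe22 (SE 0.11, interval 0.08 to 0.53) and 0.19 for Neurod2 (SE 0.09, interval 0.01 to 0.37). For Bhlhe40 the difference was 0.14 (SE 0.12, interval -0.10 to 0.39), and for Neurod1, Neurod6, Bhlhe41 and Tcf4 it lay between -0.02 and 0.03, or between -0.06 (Neurod6) and 0.08 (Neurod1) without WT 1 h male 1. A difference that misses the adjusted threshold does not show that the genotypes respond alike. Leaving out WT 1 h male 1 gave 0.26 (SE 0.10) for Bhlhe22 and 0.16 (SE 0.08) for Neurod2. At 3 h, where no gene of 17926 passed (0%, with 273 genes, 1.52%, at an unadjusted p under 0.05, and 0 by DESeq2), every member's interval held 0, and the differences ran from -0.09 (Neurod1) to 0.12 (Bhlhe22). Without mutant 3 h female 2 they ran from -0.03 (Neurod1) to 0.16 (Bhlhe22), with Tcf4 at 0.13 in place of 0.08, Neurod6 at 0.09 in place of 0.03, Bhlhe40 at 0.12 in place of 0.07, Neurod2 at 0.14 in place of 0.11 and Bhlhe41 at 0.08 in place of 0.10.

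Between genotypes in naive mice 0 members and 0 of 17336 genes passed (edgeR, 0%, with 1066 genes, 6.15%, at an unadjusted p under 0.05, and 16 to 23 called by DESeq2, none a member). Mutant values were below WT for Neurod1 (-0.16, SE 0.08, adjusted p = 0.835), Neurod6 (-0.13, SE 0.10), Bhlhe22 (-0.12, SE 0.08) and Neurod2 (-0.11, SE 0.07), each with an interval that held 0. Leaving out WT 0 h male 3 took Neurod6 to -0.07 and Bhlhe22 to -0.18, leaving out WT 0 h female 2 took Neurod2 to -0.07, and leaving out mutant 0 h female 2 took Neurod6 to -0.08. Bhlhe40 (0.04), Bhlhe41 (-0.02) and Tcf4 (-0.03) were close to 0. The lower 0 h values of Bhlhe22 and Neurod2 enter their mutant responses, since both share the mutant 0 h libraries.

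At 1 h after training edgeR called no gene of 17261 between genotypes (0%, against 8.61% at an unadjusted p under 0.05, and 98 to 110 genes by DESeq2, none a member). Bhlhe40 stood higher in mutants by 0.18 (SE 0.06) and Bhlhe22 by 0.18 (SE 0.07), given as values with no p because the mutant 1 h libraries are those of the 1 h response above. The comparisons at 3 h and over all times likewise hold mutant libraries of the responses, so the p printed there is a record and no independent test of the members. Neurod1 (-0.16, SE 0.08) and Neurod6 (-0.15, SE 0.08) were below WT, and Neurod6 stood at -0.09 without WT 1 h male 3. Neurod2 (0.08), Tcf4 (0.00076) and Bhlhe41 (-0.0017) were nearer to 0. Without WT 1 h male 1, edgeR called 41 genes and none was a member, with Bhlhe40 at 0.18, Bhlhe22 at 0.13, Neurod1 at -0.11 and Neurod6 at -0.20, Neurod2 at 0.04 in place of 0.08, and Bhlhe41 at 0.07 in place of -0.0017.

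At 3 h edgeR called 2 of 17394 genes (0.0115%) and 0 of 7 members, DESeq2 called 42 to 50 genes, and edgeR without mutant 3 h female 2 called 18, none a member in either. Neurod1 had the smallest p of the members (log2 fold change -0.25, SE 0.08, 95% interval -0.43 to -0.06, adjusted p = 0.69, edgeR). At this time 3 of 6 mutant libraries lay under the lowest WT library. Without mutant 3 h female 2, the lowest of the 6 at 25.8 CPM, it stood at -0.17 (SE 0.06, adjusted p = 0.532). The same fit gave 0.17 (SE 0.07) for Bhlhe40 in place of 0.11, 0.11 (SE 0.05) for Tcf4 in place of 0.06 and -0.02 for Neurod6 in place of -0.09, none of which passed, and Bhlhe40 stood at 0.07 without mutant 3 h male 2. For Neurod2 and Bhlhe22 the difference at this time was close to 0, with intervals of -0.13 to 0.13 and -0.21 to 0.21, and Bhlhe41 stood at 0.09 (SE 0.09). Leaving out 1 library at a time took Bhlhe41 from 0.01 to 0.13.

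Averaged over the 3 times, where 237 of 18186 genes were called between genotypes (1.3%), no member passed in edgeR. Neurod1 came nearest (log2 fold change -0.19, with the mutants lower, SE 0.06, adjusted p = 0.0771), and DESeq2 called it (adjusted p = 0.0364 with sex and 0.0396 without). Leaving out both libraries of discordant sex gave -0.15 (adjusted p = 0.119). Thalamus markers went against Neurod1 over the libraries (r = -0.45, and -0.337 within group and sex), and 5 of 5 were above 0 between genotypes, with a median of 0.24, 3 at an unadjusted p under 0.05 and none called. Their summed level spanned 74.9 to 124 CPM in WT groups and 91.2 to 189 CPM in mutants, highest in mutant 3 h female 2. Dentate and immature granule cell markers went with Neurod1 within group and sex (r = 0.39 and 0.338). Between genotypes 4 of 5 and 5 of 5 of them were above 0, each list with a median of 0.14. Interneuron markers went against Neurod1 within group and sex (r = -0.333), with 3 of 5 above 0 between genotypes. Choroid plexus markers had 0 of 5 above 0 (median -1.75). The part of these lists in the Neurod1 difference was not tested. Bhlhe40 was higher by 0.11 (SE 0.05, adjusted p = 0.245) and Neurod6 lower (-0.13, SE 0.06, adjusted p = 0.32). An unadjusted p under 0.05 was found for 3 of 7 members and 15.2% of all genes. Neurod2 (-0.0093), Bhlhe22 (0.02), Bhlhe41 (0.03) and Tcf4 (0.0095) lay near 0, with interval limits no farther from 0 than 0.13. By labelled sex, where 15 genes were called (0.0825%), no member had an unadjusted p under 0.05, and the differences ran from -0.03 (Bhlhe41) to 0.09 (Neurod1), or for Neurod1 0.13 without the libraries of discordant sex and 0.15 with sex as the counts show it (adjusted p = 0.365, edgeR).

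Partners and relatives of the members were followed as lists. Among the E proteins and Id inhibitors (Tcf3, Tcf12 and Id1 to Id4), 1 of 6 differed between genotypes over all times. This was Id4, which was higher in mutants by 0.44 (SE 0.06, adjusted p = 0.000154, edgeR). Id4 held 34.2 to 46.3, 45.03 to 55.6 and 34.0 to 50.5 CPM in WT at 0, 1 and 3 h, against 46.6 to 71.9, 53.6 to 66.7 and 46.2 to 74.9 CPM in mutants. The ranges were separate at 0 h and overlapped at 1 h and 3 h. No gene of the list was called at 1 h or at 3 h averaged over genotypes, where Tcf12 (0.06, SE 0.04) and Id1 (0.23, SE 0.10) had the smallest p, and the median of the list, 0.02 between genotypes, was near that of all genes.

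The Hes and Hey repressors, bHLH genes downstream of Notch that oppose proneural factors, included 1 of 7 called at 1 h averaged over genotypes. This was Heyl, which fell (-0.47, SE 0.12, adjusted p = 0.0337, edgeR), and Hes5 came close (-0.64, SE 0.17, adjusted p = 0.0534). The list had a median of -0.12 at 1 h. At 3 h, and between genotypes, 0 of 7 were called, with the smallest p for Hes1 (0.18, SE 0.08) and Hes6 (-0.10, SE 0.06). Of 14 other proneural, neuronal and glial bHLH genes, at most 11 passed the filter on low counts and none was called in any comparison. The smallest p belonged to Atoh8 at 1 h and 3 h (0.30 and 0.36, each SE 0.14) and to Nhlh2 between genotypes (0.31, SE 0.13).

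Of 14 clock genes, Per1 rose at 1 h averaged over genotypes (0.53, SE 0.10, adjusted p = 0.00544), and 2 of 14 rose at 3 h, Per2 (0.35, SE 0.09, adjusted p = 0.0328) and Per3 (0.31, SE 0.09, adjusted p = 0.0435, edgeR). Dbp, an output gene of the clock, stood at 0.43 at 3 h (SE 0.15, adjusted p = 0.13). At 3 h, 13 of 14 clock genes were above 0, as 47.3% of all genes were, with a median of 0.14 where that of all genes was -0.0066. None of the 14 was called between genotypes, where Npas2 had the smallest p (-0.20, SE 0.06, adjusted p = 0.11, edgeR). The labels give no hour of collection, so the clock genes are given as values only and their part in the Bhlhe40 and Bhlhe41 values was not tested.

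Among 14 transcription factor genes of forebrain excitatory neurons, including Prdm8, Zbtb20 and Prox1, none was called averaged over genotypes at either time or between genotypes. In mutants at 1 h, 13 of 14 were above 0, as 47.2% of all genes were, with a median of 0.07. The smallest p there was that of Lhx2 (0.16, SE 0.03, adjusted p = 0.0601), and Prdm8, the gene of the Bhlhe22 partner, stood at 0.43 (SE 0.11, adjusted p = 0.126). In the fits over all libraries the smallest p was that of Prdm8 at 1 h (0.25, SE 0.09), Bcl11b at 3 h (0.12, SE 0.05) and Zbtb20 between genotypes (0.18, SE 0.07). Immediate early genes, the fast transcripts of active neurons, give the scale of the response, with 8 of 9 called at 1 h averaged over genotypes, a list median of 0.82, and Fosb at 1.37 (SE 0.13). The member responses, at most 0.30 in that fit, were smaller.

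**Figure D3:**
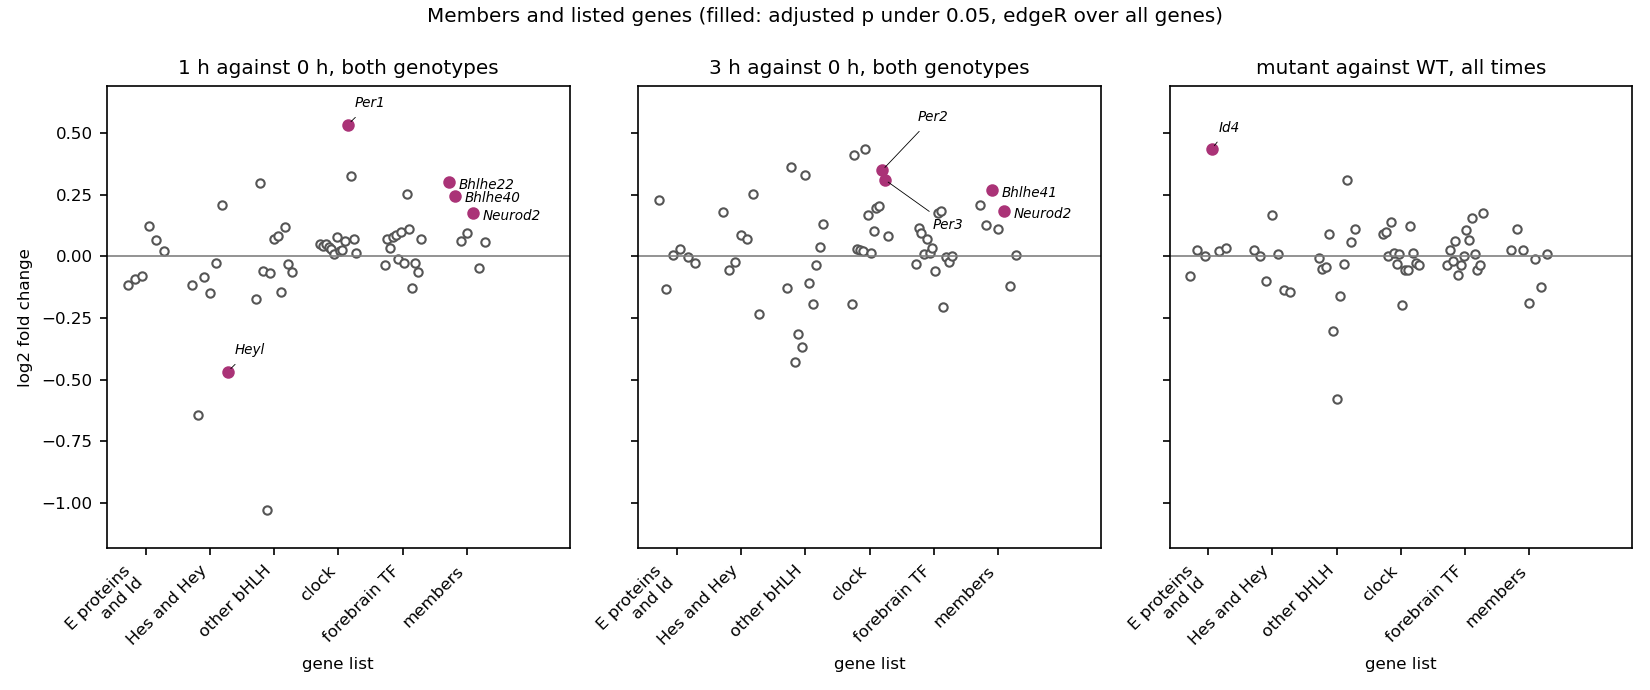
Log2 fold change of the members and of 5 gene lists for 1 h and 3 h against 0 h averaged over genotypes, and for mutant against WT over all times. Each point is a gene, and filled points passed an adjusted p of 0.05 over all genes (edgeR). Per1 and Heyl stand out at 1 h, Per2 and Per3 at 3 h and Id4 between genotypes, and no member is filled in the genotype panel.

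Across the 36 libraries the members did not form a single block. Correlations were computed on log2 CPM for all 21 pairs and are descriptions, since all pairs come from the same libraries and share their scaling and makeup. The strongest pair was Neurod2 with Bhlhe22 (Pearson r = 0.76, Spearman rho = 0.748), and r was 0.745 without the 2 libraries farthest from the median and 0.593 within group and sex. Tcf4 went with Bhlhe40 (r = 0.502) and Neurod6 (r = 0.484), and Bhlhe41 ran against Neurod6 (r = -0.477). Bhlhe40 and Bhlhe41, the DEC paralogs, had an r of 0.07, with 0.02 without the 2 farthest libraries and -0.08 within group and sex. Neurod2 and Neurod6 had an r of 0.06 over all libraries, but 0.295 without the 2 farthest and 0.294 within group and sex.

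**Figure D4:**
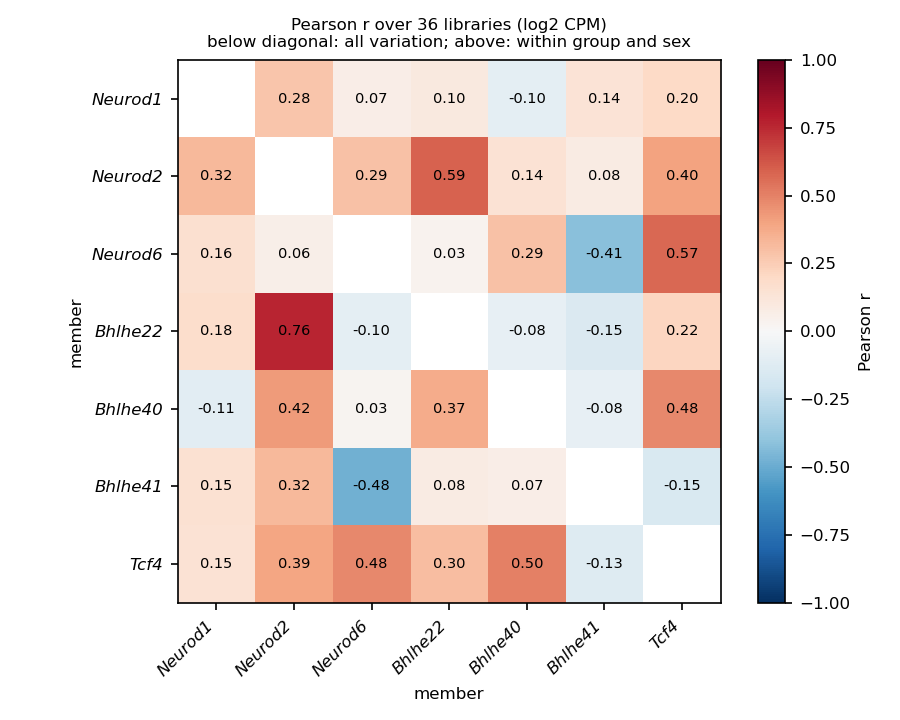
Pearson correlation of log2 CPM between members over 36 libraries, below the diagonal for all variation and above it after removing group and sex means. Neurod2 with Bhlhe22 has the highest value on both sides (0.76 and 0.59), and Bhlhe41 is negative with Neurod6 (-0.48 and -0.41).

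For each member the 3 genes of most similar profile were sought among 11795 genes with a mean of at least 5 CPM. The closest match over all variation was Bhlhe41 with Dbp (r = 0.849, rho = 0.863, 0.834 without the 2 farthest libraries, 0.798 within group and sex), followed for Bhlhe41 by Srsf2 (r = 0.769) and the clock gene Nr1d2 (r = 0.753). Within group and sex the closest match of any member was Neurod6 with Ppp3r1 (r = 0.865). In naive mice alone Dbp spanned 29.5 to 62.3 CPM among WT and 24.5 to 49.4 CPM among mutants, so much of the shared variation lay within groups. Bhlhe22 was most like Prdm8 (r = 0.821, rho = 0.821, 0.742 within group and sex), then Ippk and Chtf8 (r = 0.781 and 0.778). Prdm8 had medians of 121, 119.6 and 127 CPM in WT and 109, 149 and 132 CPM in mutants at 0, 1 and 3 h.

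Neurod2 was most like Orai2, Enox1 and Osbp2 (r = 0.798, 0.798 and 0.794), and Neurod6 like Tafa1, Ppp3r1 and Arl15 (r = 0.838, 0.821 and 0.811). Bhlhe40 was most like Gpr161, Vipr1 and Heca (r = 0.795, 0.732 and 0.729), and Tcf4 like Cnksr2, Rgs7bp and Pds5b (r = 0.818, 0.802 and 0.791). Neurod1 had the weakest matches, Exph5, Ablim1 and Mmp24 (r = 0.702, 0.6499 and 0.624), and that with Exph5 was 0.535 without the 2 farthest libraries. No gene was among the 3 closest of more than 1 member.

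**Figure D5:**
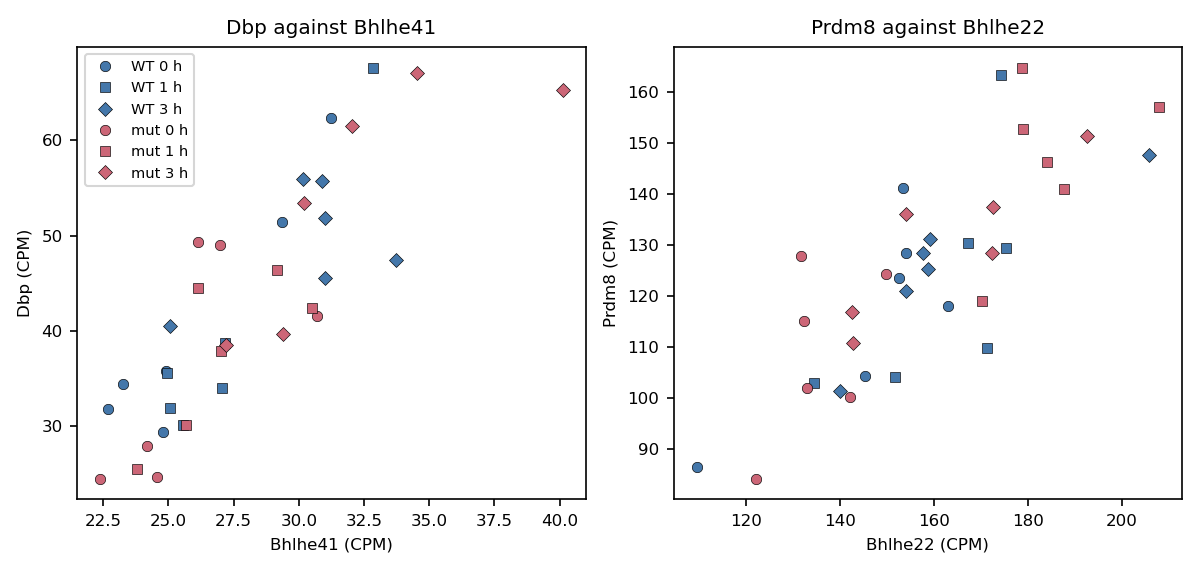
Dbp against Bhlhe41 and Prdm8 against Bhlhe22 in the 36 libraries, in TMM-scaled CPM on linear axes, blue for WT and red for mutants, with circles for 0 h, squares for 1 h and diamonds for 3 h. Over all 36 libraries r was 0.849 and 0.821 on the log2 scale.

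The dissected tissue can vary in its mix of cells, and in bulk RNA fewer cells of a type and less RNA per cell cannot be told apart. The summed level of 5 dentate granule cell markers had medians of 395, 445 and 477.9 CPM in WT and 446, 501.8 and 555 CPM in mutants at 0, 1 and 3 h, with ranges of 406 to 509 CPM and 436 to 554 CPM in mutants at 0 h and 1 h, and no marker was at 0. It went with Neurod2 (r = 0.547, and 0.525 within group and sex) and Bhlhe22 (r = 0.538 and 0.5498), and its part in their responses was not tested. In mutants at 1 h, 4 of these 5 markers were above 0 with a median of 0.20, of which Prox1 (0.20, SE 0.06) had the smallest p, and none was called. Immature granule cell markers stood the other way at that time, with 1 of 5 above 0, a median of -0.58 and the smallest p for Igfbpl1 (-0.82, SE 0.28). Their sum went against Neurod2 (r = -0.381) and Bhlhe22 (r = -0.34). Their sum spanned 76.8 to 123 CPM in mutants at 0 h and 55.9 to 99.3 CPM at 1 h, and its part in the responses was not tested. In mutants at 1 h striatum markers had 0 of 5 above 0 (median -0.34) and interneuron markers 1 of 5 (median -0.09). CA1 markers had 4 of 4 above 0 (median 0.14), neocortex 5 of 5 (median 0.06), thalamus 4 of 5 (median 0.17) and choroid plexus 0 of 5 (median -0.97). Of all genes 47.2% were above 0, and none of these lists had a gene called in that comparison. Over all libraries 1 of the 5 dentate granule cell markers, C1ql2, was called between genotypes (higher in mutants by 0.74, SE 0.15, adjusted p = 0.00898, edgeR) and 1, Pdzd2, at 3 h (0.58, SE 0.15, adjusted p = 0.0339). Of the other marker lists, the astrocyte gene Gja1 was called between genotypes (0.13, SE 0.03), and the immature neuron gene Dcx (-0.31, SE 0.09), the cortical gene Rorb (-0.31, SE 0.06) and the endothelial gene Ly6c1 (0.29, SE 0.08) at 3 h. Neurod6 was lower where 5 oligodendrocyte markers were higher (r = -0.544), whose sums ran from 4145 to 10090 CPM over the groups. Tcf4 was lower where choroid plexus markers were higher (r = -0.517), and these 5 markers ran from 42.1 to 7891 CPM, with medians of 2081, 1034 and 2191 CPM in WT and 191, 124 and 1470 CPM in mutants at 0, 1 and 3 h. The part of these lists in the Neurod6 and Tcf4 values was not tested.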

How the data were processed

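Dorsal hippocampus mRNA was sequenced as paired reads of 150 bases, 1 library per mouse, so p-values measure the spread between mice. The files hold unnormalised counts for each gene as deposited: the authors aligned reads to mm10 with STAR 2.7.8a and counted them with featureCounts 2.0.1, per the labels and the study's methods, while annotation, strand setting and treatment of reads that map to several places are not given in the sources used here. Of 44 samples in the series, 8 were not analysed here. Of 27179 gene identifiers 1904 had no symbol in the tables used (1.28% of counts), and they stayed in the fits under their identifiers.

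Each comparison was fitted with edgeR 4.0.16 (R 4.3.3, limma 3.58.1): filterByExpr with a minimum count of 10, TMM factors, labelled sex as a covariate, robust quasi-likelihood F-test, and Benjamini-Hochberg adjustment over all genes tested at 0.05. SE is the fold change divided by the root of F. Levels are CPM with TMM factors over 36 libraries, and correlations used log2 CPM with a prior count of 2. A library was taken to go against its sex label by a summed count of 1000 over Y-linked genes.

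The members and gene lists were chosen with earlier results of these data known. All 7 members are described in every comparison, by value or range, with the 3 genes of highest Pearson r to each and list genes that were called or had the smallest p of their list. Alternatives were DESeq2 1.42.0 with and without sex, RLE factors, no filter, no covariate, a replicate block, ribosomal and mitochondrial genes left out, all libraries in 1 fit, each library left out, and, added once the data had been seen, a covariate from sex-linked counts in place of the label and leaving out the 2 discordant libraries. Promoters came from RefSeq (GRCm38.p6). Descriptions used SciPy 1.17.1, pandas 2.3.3 and NumPy 2.4.6, and plots Matplotlib 3.10.9, in Python 3.11.15.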

Additional observations from a re-analysis of the deposited data

Results flagged for a closer look

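A library was set apart from its group of 6 where its gap to the nearest other library, divided by the range of the group, exceeded Dixon's critical value for 6 samples. Of 42 groups of members' levels 6 did, and chance gives about 1 in 20 groups. Neurod1 was at 37.85 CPM in mutant 1 h male 1 and Neurod2 at 283.7 CPM in mutant 1 h male 3, each the highest of its group. Bhlhe22 was at 109.6 CPM in WT 0 h male 3, the lowest of its group, and at 205.7 CPM in WT 3 h female 3, the highest. Bhlhe41 was at 32.86 CPM in WT 1 h male 1, a library that also went against its sex label, and Tcf4 was at 660.8 CPM in WT 1 h male 3, both the highest of their groups.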

How the results depend on the processing

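Members called stayed the same, or within 1.5 times, in all comparisons and settings apart from the 2 named next. DESeq2 with and without sex called 1 member (Neurod2) for mutant 3 h against 0 h and 1 (Neurod1) for genotype over all times, where edgeR called 0. In mutants at 1 h DESeq2, the replicate block and the fit without mutant 0 h male 2 added Bhlhe40, giving 3 called. The cause was not tested. The replicate numbers name different mice (same-numbered libraries deviated with a median r of 0.351, others of the same sex 0.31), and the replicate block changed no other member call. It gave 37 called genes in place of 54 for mutant 1 h.

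Counts over all genes moved by over 1.5 times with DESeq2 (with and without sex): 363 and 402 for mutant 1 h, 124 and 135 for mutant 3 h, 81 and 70 for mutant 3 h against 1 h, 5 and 9 for WT 1 h, 75 and 49 for WT 3 h, 62 and 49 for WT 3 h against 1 h, 16, 98 and 50 against 23, 110 and 42 between genotypes at 0, 1 and 3 h, 2 and 1 for the 1 h interaction, 556 and 500 for genotype over all times, 417 and 423 for 1 h and 818 and 827 for 3 h averaged over genotypes. Without the 2 discordant libraries edgeR called 3 genes for WT 1 h and for WT 3 h against 1 h, 1 for mutant 3 h, 18 for mutant 3 h against 1 h, 41 and 18 between genotypes at 1 h and 3 h, 507 for genotype over all times and 419 for 1 h averaged over genotypes. Leaving out each library in turn gave 26 to 86 genes for mutant 1 h, up to 10 for mutant 3 h, 8 for WT 3 h, 5 between genotypes at 0 h and, as above, 41 at 1 h. Other fits of edgeR moved the smaller counts: between genotypes at 1 h 3 without the covariate and 5 with the block, at 3 h 0 with the block and 3 in the fit of all libraries, which called 1 for WT 1 h and 1 for WT 3 h against 1 h, and 1 for mutant 3 h against 1 h without the filter.

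Signs changed for 67 of 1701 values, in 15 of 105 results, with main values of at most 0.065 in size and values after the change of at most 0.089. With the discordant libraries left out these were, on the log2 scale, 0.01033 for Neurod6 and -0.003244 for Bhlhe41 (WT 1 h), -0.04478 for Bhlhe22 (WT 3 h against 1 h), 0.0225, 0.001957 and 0.02727 for Neurod1, Neurod6 and Tcf4 (mutant 3 h against 1 h), 0.06519 and -0.0121 for Bhlhe41 and Tcf4 (genotype at 1 h), 0.03879 and 0.03659 for Neurod2 and Bhlhe22 (genotype at 3 h), and -0.002583 for Neurod2 (sex). With sex as the counts show it they were -0.0006674 for Bhlhe22 (WT 3 h against 1 h), 0.01226 and -0.004899 for Bhlhe41 and Tcf4 (genotype at 1 h), 0.01225 and 0.002394 for Neurod2 and Bhlhe22 (genotype at 3 h) and -0.003491 for Neurod2 (sex). The block gave -0.002544 for Bhlhe22 (WT 3 h against 1 h), 0.0004386 and 0.002916 for Neurod2 and Bhlhe22 (genotype at 3 h). Leaving out ribosomal and mitochondrial genes gave -0.0002272 for Tcf4 (genotype at 1 h), 0.000668 and 0.0006711 for Neurod2 and Bhlhe22 (genotype at 3 h). Bhlhe22 at 3 h was 0.001251 without the covariate and 0.001514 in the fit of all libraries, and Bhlhe41 at 1 h 0.001336 without the filter.

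Leaving out each library in turn, the results whose sign changed ranged for Bhlhe22 from -0.07679 to 0.04983 (WT 3 h against 1 h) and -0.0522 to 0.08903 (genotype at 3 h), for Bhlhe40 from -0.01068 to 0.111 (genotype at 0 h), and for Bhlhe41 from -0.003244 to 0.1139 (WT 1 h), -0.07027 to 0.03694 and -0.04508 to 0.06519 (genotype at 0 h and 1 h). They ranged for Neurod1 from -0.005708 to 0.1379 (WT 3 h against 1 h) and -0.06924 to 0.04581 (mutant), for Neurod2 from -0.03122 to 0.03879 (genotype at 3 h), for Neurod6 from -0.09803 to 0.01033 (WT 1 h) and -0.1122 to 0.001957 (mutant 3 h against 1 h), and for Tcf4 from -0.05334 to 0.02727 (mutant 3 h against 1 h), -0.05763 to 0.005916 and -0.01616 to 0.02869 (genotype at 0 h and 1 h).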
